A study of Mus musculus with 4 samples.

Results

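The interferon-gamma (IFN-γ) induced GTPases examined here were 10 mouse genes of 2 related families. They comprised the guanylate-binding proteins (GBPs) Gbp2, Gbp3, Gbp5, Gbp7 and Gbp8, and the immunity-related GTPases (IRGs) Irgm1, Irgm2, Igtp, Iigp1 and Tgtp1. They were chosen by gene symbol and matched by Entrez identifier, and all 10 were found among the 16739 genes with a value in any library. The libraries were RNA-seq of tumor-associated macrophages (TAMs), sorted as CD45+ CD11b+ F4/80+ cells from B16-F10 melanomas of C57BL/6 mice 16 days after subcutaneous injection. The melanoma line B16-F10 derives from the same strain. Mice were 6 to 8 weeks old at injection. The groups were wild type (WT, 2 libraries) and mice conditionally deficient for Trim24 in myeloid cells (2 libraries), a cross of Trim24 flox/flox mice with LysM-Cre, a recombinase that is expressed in macrophages, monocytes and granulocytes. All hosts carried the same tumor and no other treatment is given. Whether the WT mice carried Cre, and whether a library was made from 1 mouse or a pool, is not given in the sources used here, so p-values measure only the spread between these samples.

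IFN-γ, a cytokine made mainly by T cells and natural killer (NK) cells, binds a receptor that signals through the kinases Jak1 and Jak2. The signal reaches promoters through GAS elements and induces Irf1, which binds ISRE elements. GBPs and IRGs are among the most strongly induced products in macrophages. The GBPs are large GTPases that coat the vacuoles of intracellular pathogens and bacteria in the cytosol and take part in inflammasome activation. The IRGs are smaller. Irgm1, Irgm2 and Igtp (also called Irgm3) are regulators that sit on host membranes and hold the effector IRGs inactive, while Iigp1 (Irga6) and Tgtp1 (Irgb6) are effectors that load onto pathogen vacuoles. Type I interferons induce many of the same genes.

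In GRCm38 coordinates of RefSeq, the genes lie in family clusters. On chromosome 3, Gbp5 (Entrez 229898, 142496934 to 142522344), Gbp7 (229900, 142530336 to 142550151), Gbp3 (55932, 142560016 to 142573213) and Gbp2 (14469, 142620663 to 142638008) follow each other on the plus strand. Gbp8 (76074, 105012513 to 105053609) lies on the minus strand of chromosome 5. Chromosome 11 holds Irgm1 (15944, 48865245 to 48871420) and Tgtp1 (21822, 48985329 to 48992246) on the minus strand and, in another cluster, Igtp (16145, 58199556 to 58207592) and Irgm2 (54396, 58214977 to 58222783) on the plus strand. Iigp1 (60440) lies on chromosome 18. All 10 are annotated as protein-coding. The longest basic GENCODE transcript has 10 or 11 exons for the 5 GBPs and 2 or 3 for the 5 IRGs.

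The promoter windows of RefSeq (GRCm38.p6, 250 bases before to 50 after an annotated start) were searched on both strands for GAS (TTCNNNGAA), for the wider spacing bound by Stat6 (TTC and GAA with any 4 bases between them) and for the ISRE core (GAAA and GAAA with any 2 bases between them, which reads TTTC and TTTC on the other strand). An entry was found for 8 of the 10 genes, all but Gbp8 and Iigp1, and Gbp3 had 2 windows. The ISRE core was found in 8 of 9 windows (8 of 8 genes), against 3.44% of all 32851 windows. GAS was found in 5 of 9 windows (5 of 8 genes: Gbp5, Gbp7, Irgm2, Igtp and Tgtp1), against 8.30% of all windows. The Stat6 spacing was found in 1 of 9 windows, at the second start of Gbp3, against 6.95%. That second window held neither ISRE nor GAS. Such matches are descriptions of the sequence and not measured binding.

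The following stretches run from 110 to 11 bases before the start (the base before the start is -1), 5′ to 3′ in the direction of the gene, with GAS and ISRE matches in capitals. Irgm2 (chr11:58214867-58214966 on the plus strand), Igtp (chr11:58199446-58199545 on the plus strand) and Tgtp1 (chr11:48992257-48992356 on the minus strand) are shown because they hold GAS and ISRE with the same spacing, and Tgtp2 (chr11:49064223-49064322 on the minus strand) because it is a near copy of Tgtp1.
Irgm2: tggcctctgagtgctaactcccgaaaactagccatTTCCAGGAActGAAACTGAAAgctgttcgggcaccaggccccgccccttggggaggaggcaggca
Igtp: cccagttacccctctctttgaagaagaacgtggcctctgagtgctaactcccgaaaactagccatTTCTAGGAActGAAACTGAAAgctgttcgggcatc
Tgtp1: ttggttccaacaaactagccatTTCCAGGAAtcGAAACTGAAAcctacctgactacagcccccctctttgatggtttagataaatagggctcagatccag
Tgtp2: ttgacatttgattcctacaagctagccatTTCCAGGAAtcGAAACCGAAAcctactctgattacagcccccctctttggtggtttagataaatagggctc

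In these 4 windows the ISRE core began after 2 bases that follow GAS. This arrangement, counted after it had been seen, was found in 5 of the 32851 windows, and the fifth was that of Gm12185, for which RefSeq gives the IRG name Irgb2b1. All 5 genes lie on chromosome 11. The next stretches show windows with another arrangement: Gbp2 (chr3:142620553-142620652 on the plus strand) with ISRE alone, Gbp7 (chr3:142530226-142530325 on the plus strand) with 2 GAS matches and ISRE on the opposite strand, and Irgm1 (chr11:48871431-48871530 on the minus strand) with 2 overlapping ISRE cores and no GAS.
Gbp2: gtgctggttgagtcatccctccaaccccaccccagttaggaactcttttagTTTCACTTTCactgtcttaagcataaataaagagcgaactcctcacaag
Gbp7: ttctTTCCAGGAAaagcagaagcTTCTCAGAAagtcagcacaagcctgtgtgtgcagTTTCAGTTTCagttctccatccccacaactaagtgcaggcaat
Irgm1: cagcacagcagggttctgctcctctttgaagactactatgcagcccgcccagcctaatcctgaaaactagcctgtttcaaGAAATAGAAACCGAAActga

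**Figure D1:**
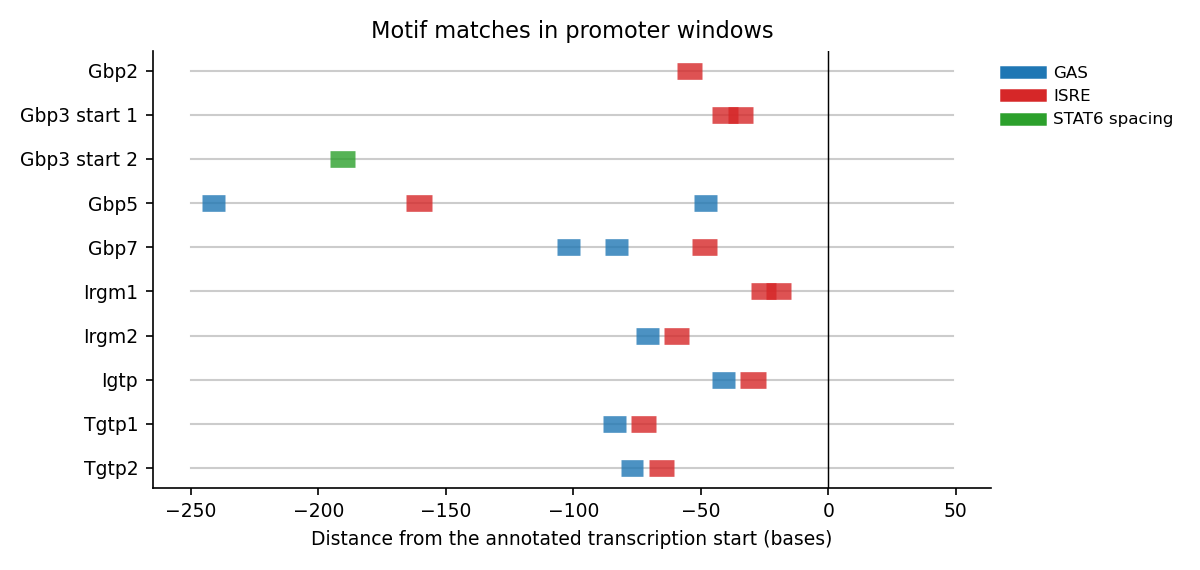
Positions of GAS, ISRE and Stat6-spacing matches in the promoter windows of the listed genes with an entry and of Tgtp2, in bases from the annotated start (vertical line), 1 grey line per window. GAS lies 2 bases upstream of ISRE in Irgm2, Igtp, Tgtp1 and Tgtp2, and no other window shown has that spacing.

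Expected counts summed to between 4476122 and 5172407 per library, so that 3 counts equal 0.61 to 0.64 CPM (counts scaled to a common library total with edgeR's TMM factors). Trim24 was at 5.86 and 2.08 CPM in WT and at 3.41 and 0.411 CPM under the Trim24-deficient label (replicates 1 and 2). Because these ranges overlap and the values are per gene, not per exon, the label was not checked by its transcript and the group is called by its label throughout. Values given in pairs are replicates 1 and 2 in that order throughout. The female-specific Xist RNA was at 10.9 and 6.46 CPM in WT and at 437 and 256 CPM under the Trim24-deficient label. Ddx3y, a gene of the Y chromosome, had values of 73.7 and 102 CPM in WT and of 0.426 and 0.411 CPM in the others. Sex and genotype therefore cannot be told apart in any comparison below. The markers of the sort were present in every library, with Adgre1 (F4/80) between 1039 and 1304 CPM and Itgam (CD11b) between 489 and 1172 CPM. Melanoma transcripts were present too, with Tyr between 375 and 496 CPM. Of 8 macrophage markers tested, 6 were higher under the Trim24-deficient label without overlap of the groups, against 21.4% of all genes tested. By edgeR 2 of the 8 were higher at an unadjusted p under 0.05 (6.58% of all), and 0 passed the thresholds given below (0.372%). The median log2 fold change of the 8 was 0.29.

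Transcripts of all 10 GTPases were detected in all 4 libraries. Together they took 0.160% and 0.101% of the expected counts in WT replicates 1 and 2 and 0.335% and 0.204% under the Trim24-deficient label. Per length (FPKM, fragments scaled to transcript length and library total, as deposited), Gbp2 had the highest mean in WT, at 134 and 68.9, followed by Irgm1 at 116 and 86.9. Gbp2 was above Irgm1 in WT replicate 1 and below it in replicate 2, so these neighbours were not separated. Iigp1 was at 94.0 and 48.5 FPKM and Igtp at 84.1 and 53.8, again with the order turning between the libraries. Gbp3 (59.8 and 34), Gbp7 (35.3 and 27.0) and Irgm2 (29.7 and 26.7) came next, with ranges that overlap from each neighbour to the next. Below them the 2 WT libraries of each gene lay apart from those of the next: Gbp8 was at 20.9 and 10.8 FPKM, Tgtp1 at 7.88 and 4.33, and Gbp5, the lowest, at 2.93 and 2.42. By mean FPKM the libraries labelled Trim24-deficient gave the same order, except that Igtp and Iigp1 changed places. Among genes above 0 in a library, Gbp5 stood at the 35th to the 62nd percentile of FPKM, whereas the most abundant listed gene stood between 92.8 and 97.7.

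Each of the 10 genes was higher in both libraries labelled Trim24-deficient than in both WT libraries, and the fold changes ran from 1.82 for Gbp7 to 4.91 for Tgtp1. The groups did not overlap for 10 of 10 genes, against 21.4% of the 11302 genes tested that were higher without overlap. The median log2 fold change was 1.24, beside -0.0059 for all genes tested, of which 49.4% lay above 0. None of the 10 genes was called by edgeR's quasi-likelihood test at a false discovery rate below 0.05 and a fold change above 1.5, whereas 42 genes were called in all (0.372%). At an unadjusted p under 0.05 and higher, there were 10 of 10 listed genes and 6.58% of all genes tested. The adjusted p of the 10 genes ran from 0.0697 to 0.210. DESeq2 called 8 of 10, all but Gbp5 and Gbp7, against 1.38% of all genes. Fitted with limma on log2(FPKM + 1), 0 of 10 were called, against 23 of the 11093 genes tested there. That fit gave 10 of 10 listed genes an unadjusted p under 0.05, against 1462 of the 11093 in either direction. Permuting 2 libraries against 2 (exact, two-sided) cannot give a p below 0.333, so the model-based values above draw on a spread pooled across genes. In bulk RNA, a change in the number of cells that express a gene and in RNA per cell cannot be told apart.

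**Figure D2:**
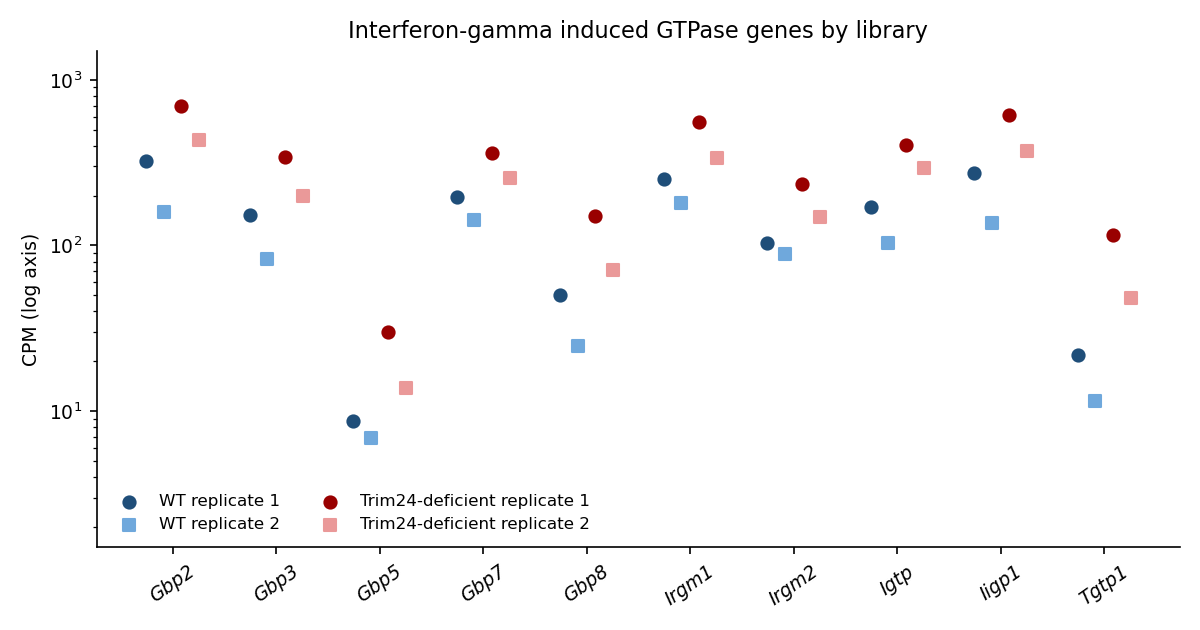
CPM (log axis) of the 10 listed genes in each of the 4 libraries, 1 point per library. For every gene WT replicate 2 is lowest, then WT replicate 1, then the library labelled Trim24-deficient replicate 2, and replicate 1 of that label is highest.

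Among the GBPs, Gbp2, which is recruited to parasite vacuoles and is the most abundant of the 5, was at 324 and 160 CPM in WT and at 699 and 431 CPM under the Trim24-deficient label. The log2 fold change of Gbp2 came to 1.22 ± 0.35 (standard error), with an adjusted p of 0.210 by edgeR's quasi-likelihood test. The spread within WT, 2.03-fold, was close to the fold between the groups, 2.33. Gbp3, in the same cluster, was at 153 and 82.9 CPM in WT and at 345 and 198 CPM under the Trim24-deficient label (log2 fold change 1.20, standard error 0.33, edgeR adjusted p = 0.20). Gbp7 was at 195 and 143 CPM in WT and at 360 and 256 CPM in the other group. It had the smallest log2 fold change of the 10, 0.87 (standard error 0.24, edgeR adjusted p = 0.205), and for it replicates of both groups lay close together, 1.37-fold apart in WT and 1.40-fold in the other group.

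Gbp5, a GBP known for promoting NLRP3 inflammasome assembly, was low, at 8.68 and 6.88 CPM in WT and at 30.03 and 13.8 CPM under the Trim24-deficient label. Here the WT libraries were only 1.26-fold apart while those of the other group were 2.18-fold apart (log2 fold change 1.49, standard error 0.40, edgeR adjusted p = 0.193). Gbp8, the listed GBP of the chromosome 5 cluster, was at 50.5 and 24.8 CPM in WT and at 150 and 70.7 CPM under the Trim24-deficient label (log2 fold change 1.55, standard error 0.39, edgeR adjusted p = 0.170). Of its transcript words of 50 bases 19.95% also occur in another gene, most often Gbp11. Part of its count may therefore depend on how RSEM divided shared reads. The share was 12.7% for Gbp7, 11.8% for Igtp (all in Irgm2) and 7.77% for Irgm2. For the other listed genes except Tgtp1, described below, it was 3.75% or less.

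The 3 regulatory IRGs differed less between the groups than the effector Tgtp1 did in fold, a description that was not tested. It did not hold for the other effector, Iigp1, whose log2 fold change of 1.25 lay below that of the regulator Igtp. Summed with its near copy Tgtp2, Tgtp1 had a log2 fold change of 1.41. Irgm1, known for resistance to mycobacteria and for a role in autophagy, was at 252 and 181 CPM in WT and at 560 and 337 CPM under the Trim24-deficient label (log2 fold change 1.05, standard error 0.28, edgeR adjusted p = 0.192). Irgm2 was at 103 and 89.0 CPM in WT and at 236 and 148 CPM under the Trim24-deficient label, with a log2 fold change of 0.997 (standard error 0.24, edgeR adjusted p = 0.155). Its WT libraries, 1.16-fold apart, were the closest of all 10 genes. Igtp, next to Irgm2 on chromosome 11, was at 170 and 104 CPM in WT and at 406 and 292 CPM under the Trim24-deficient label, with a log2 fold change of 1.35 (standard error 0.27, edgeR adjusted p = 0.0936). The lower library of that label was 1.72-fold above the higher WT library, the widest gap between the groups after that of Tgtp1.

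Of the effectors, Iigp1, which loads onto vacuoles of Toxoplasma, was at 275 and 137 CPM in WT and at 610 and 374 CPM under the Trim24-deficient label (log2 fold change 1.25, standard error 0.34, edgeR adjusted p = 0.198). Tgtp1 was at 21.8 and 11.5 CPM in WT and at 115 and 48.5 CPM under the Trim24-deficient label. Its log2 fold change, 2.29 (standard error 0.42, edgeR adjusted p = 0.0697), was the largest of the 10 and its adjusted p the smallest. The groups were 2.22-fold apart at their nearest libraries. Without the filter on low counts, Tgtp1 was called (edgeR adjusted p = 0.0350), the only 1 of the 10, against 0.371% of all genes.

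The value of Tgtp1 depends on how reads were divided with Tgtp2, a near copy on the same chromosome (49057196 to 49064212). Of the 50-base words of Tgtp1 transcripts, 79.4% also occur in Tgtp2. RSEM gave Tgtp1 6.50% and 5.26% of the expected counts of the pair in WT replicates 1 and 2, and 13.0% and 8.398% under the Trim24-deficient label. Tgtp2 itself was at 312 and 206 CPM in WT and at 771 and 528 CPM in the others. The sum of both copies was at 334 and 217 CPM in WT and at 886 and 577 CPM under the Trim24-deficient label. The sum differed by 1.41 ± 0.29 on the log2 scale (standard error, edgeR adjusted p = 0.0935), a fold of 2.65 against 4.91 for Tgtp1 alone and within the range of the other 9 listed genes. DESeq2 called the sum (adjusted p = 0.000174).

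The 4 libraries stood in the same order for all 10 genes, which 6.80% of all genes tested also showed. WT replicate 1 was above WT replicate 2 for 10 of 10 genes, by 1.16-fold (Irgm2) to 2.04-fold (Gbp8). Under the Trim24-deficient label, replicate 1 was above replicate 2 for 10 of 10, by 1.39-fold (Igtp) to 2.38-fold (Tgtp1). On the scale of log2(CPM + 0.5), the median difference within WT was 0.79 for the listed genes and 0.23 in size for all genes tested. Between the libraries labelled Trim24-deficient it was 0.72 against 0.30. The GTPases thus spread more between replicates than the median gene. The nearest libraries of the groups, the library labelled Trim24-deficient replicate 2 and WT replicate 1, were 1.29-fold (Gbp3) to 2.22-fold (Tgtp1) apart. This gap was narrower than the spread within WT for Gbp2, Gbp3, Gbp7, Gbp8, Irgm1 and Iigp1.

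Single libraries decided the calls. Without the library labelled Trim24-deficient replicate 2, 10 of 10 listed genes were called, against 5.54% of all genes tested, and without replicate 1 of that label Igtp and Tgtp1 were called, against 3.46%. Without WT replicate 1 the log2 fold changes of the listed genes ran from 1.12 to 2.85. Without WT replicate 2 they ran from 0.66 to 1.90, and edgeR called none of them. In these fits a lone library is assumed to vary like the other group. All 10 log2 fold changes stayed above 0, with medians from 0.83 (without the library labelled Trim24-deficient replicate 1) to 1.75 (without WT replicate 1).

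**Figure D3:**
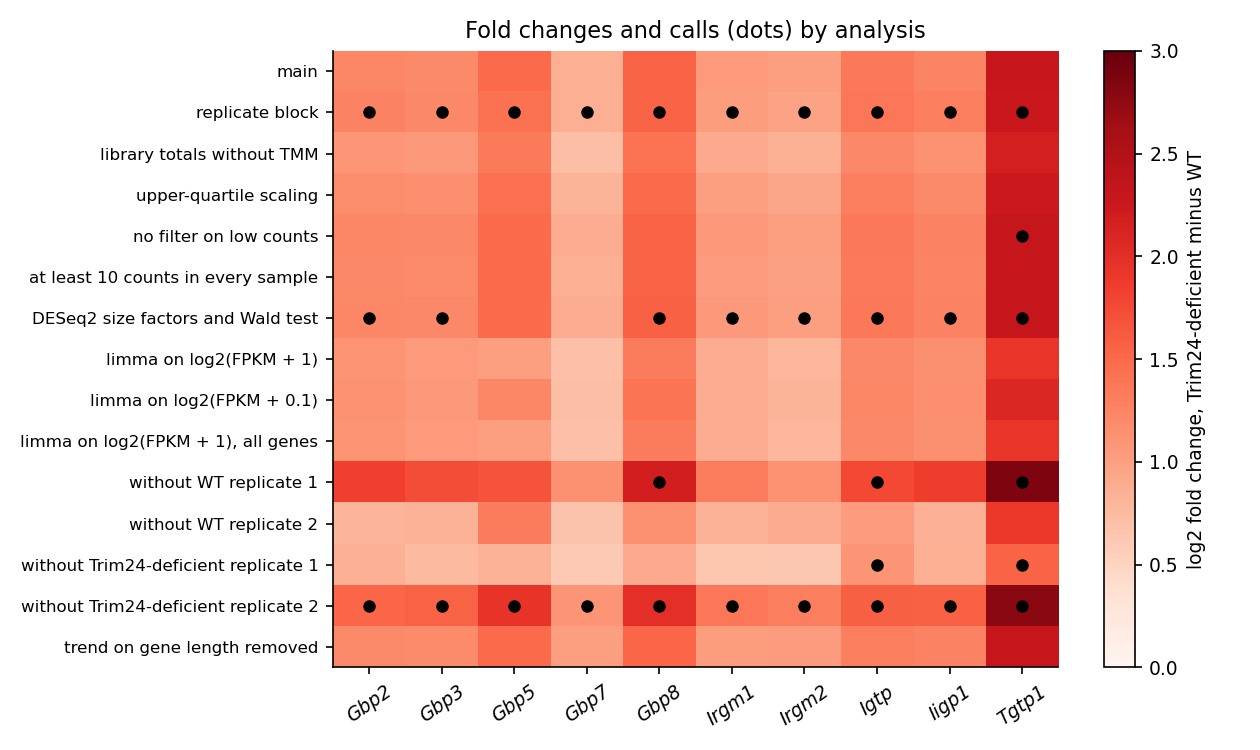
Log2 fold change of each listed gene (colour, from 0 to 3) in the main analysis and under 14 alternatives, with a dot where the gene was called. Every cell is above 0, and all 10 genes carry dots only with the replicate block (5.61% of all genes called) and without the library labelled Trim24-deficient replicate 2.

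The remaining GBPs and IRGs were described from a list of 14 family genes, of which 13 were tested. edgeR called none (0.372% of all genes tested), and 9 were higher at an unadjusted p under 0.05 (6.58% of all). Without overlap of the groups, 9 were higher (21.4% of all) and 0 lower (23.0%). A log2 fold change above 0 was found for 11 (49.4% of all), and the median was 1.08. Of the 13, DESeq2 called only Gbp9, Gbp10 and Tgtp2, against 1.38% of all genes. It did not call Gbp2b or Gbp4 (DESeq2 adjusted p = 0.606 and 0.453). Gbp2b (formerly Gbp1), between Gbp3 and Gbp2 on chromosome 3, was at 79.2 and 11.7 CPM in WT and at 501 and 118 CPM under the Trim24-deficient label, with the largest log2 fold change of the families, 2.77 (standard error 0.80, edgeR adjusted p = 0.214). Its WT libraries differed more than those of any listed gene. Gbp4, in the chromosome 5 cluster, was at 149 and 69.2 CPM in WT and at 538 and 222 CPM in the others (log2 fold change 1.80, standard error 0.44, edgeR adjusted p = 0.155). Gbp9 was at 83.6 and 52.7 CPM in WT and at 153 and 121 CPM under the Trim24-deficient label. Gm12250 (Irgb10), which lies beside Igtp, was at 114 and 79.8 CPM in WT and at 245 and 141 CPM in the others.

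Several family genes share most of their sequence. Gbp6 was at 196 and 91.7 CPM in WT and at 408 and 223 CPM under the Trim24-deficient label, but 91.9% of its 50-base words occur in another gene, and for Gbp10 (4.64 and 3.13 CPM in WT, 29.6 and 6.37 in the others) 82.5% do. Gbp11, annotated as a pseudogene, was at 1.21 and 0.625 CPM in WT, the latter at or under the value of 3 counts in that library, and at 4.90 and 2.47 CPM in the others. The tandem copies 9930111J21Rik1 and 9930111J21Rik2 share 80.4% and 56.1% of their words with each other. The former was at 71.5 and 119 CPM in WT and at 158 and 77.3 CPM in the other group, with overlap, and the latter at 22.6 and 21.9 CPM and at 59.4 and 34.9 CPM, without.

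Family genes whose groups overlapped were F830016B08Rik (31.5 and 46.5 CPM in WT, 49.8 and 19.3 under the Trim24-deficient label), Gvin1, a very large interferon-inducible GTPase (122 and 85.8, then 190 and 52.8), and Irgq, a member without a working GTPase site (16.8 and 26.3, then 17.7 and 12.3). Of the 50-base words of Gvin1, 99.2% occur in another gene, so its level depends on how shared reads were divided. Irgc1, an IRG of the testis, had 0.616 CPM or less and was not tested. Gm12185, named here because of its promoter, was at 13.9 and 12.1 CPM in WT and at 44.7 and 19.3 CPM under the Trim24-deficient label (log2 fold change 1.30, standard error 0.37, edgeR adjusted p = 0.213).

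**Figure D4:**
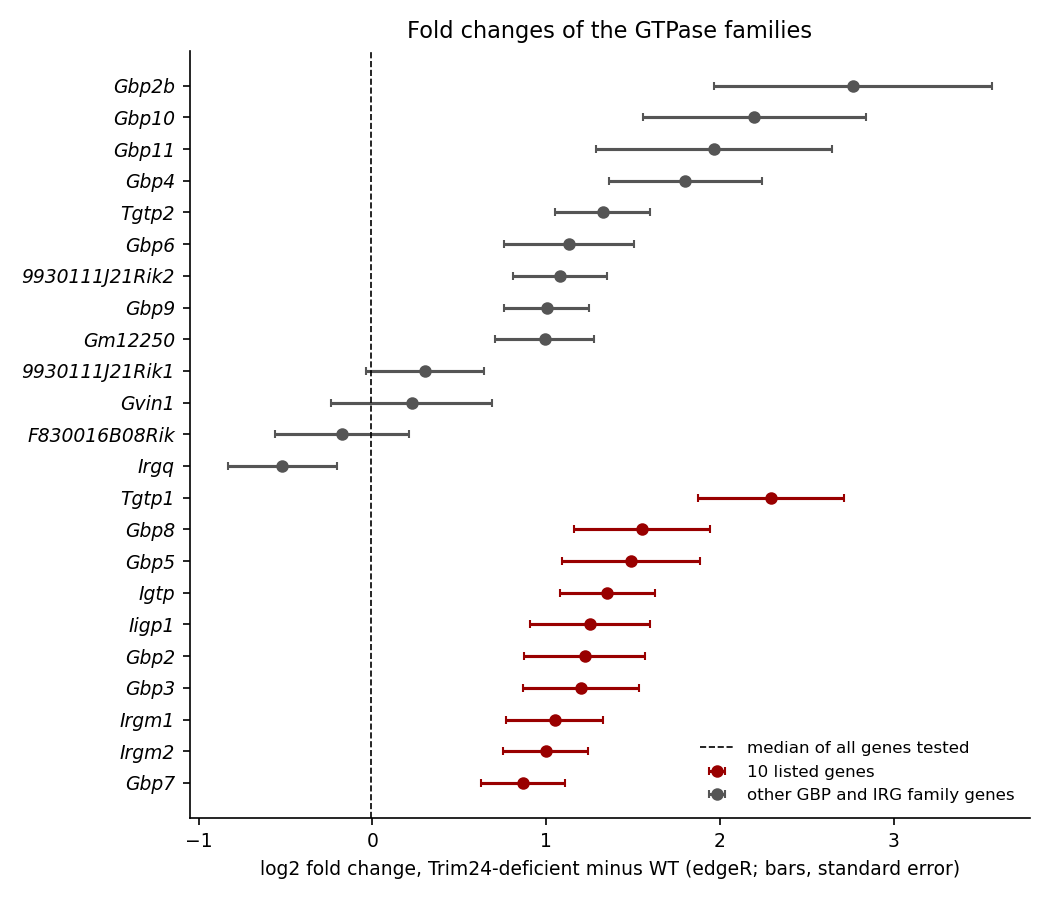
Log2 fold change of the 13 other family genes tested (upper, grey) and the 10 listed genes (lower, red), with the standard error as bars and the median of all genes tested, -0.0059, as the dashed line. All 10 listed genes lie between 0.87 and 2.29, and 2 family genes, F830016B08Rik and Irgq, lie below 0.

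The inducer of the families was described next. Ifng, the ligand, was at 7.88 and 3.96 CPM in WT and at 39.8 and 7.40 CPM under the Trim24-deficient label, so that replicate 1 of that label stood above the other 3 libraries and the groups overlapped. The receptor chain Ifngr1 was at 161 and 190 CPM in WT and at 224 and 245 CPM in the others, and Ifngr2 between 142 and 164 CPM with overlap. The kinases Jak1 (221 to 260 CPM) and Jak2 (18.7 to 27.9 CPM) had log2 fold changes of 0.13 and -0.10. Irf1 was at 214 and 116 CPM in WT and at 510 and 212 CPM in the others, so the lower library of that label lay just under WT replicate 1. Socs1, the feedback inhibitor of the pathway, was at 33.5 and 14.8 CPM in WT and at 88.6 and 38.0 CPM under the Trim24-deficient label. Of 14 signalling genes tested edgeR called none, 8 were higher at an unadjusted p under 0.05, 8 were higher without overlap and 1 lower (against 6.58%, 21.4% and 23.0% of all genes tested), and the median log2 fold change was 0.55.

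Other genes induced by IFN-γ had a median log2 fold change of 1.10 over 19 genes tested, of which 3 were called higher and none lower (against 0.372% called over all genes), and 17 were higher without overlap (against 21.4%). The 3 called genes encode MHC class II presentation. H2-Ab1 was at 1048 and 718 CPM in WT and at 4399.9 and 3945 CPM under the Trim24-deficient label (log2 fold change 2.24, standard error 0.26, edgeR adjusted p = 0.00904). H2-Eb1 (log2 fold change 1.97, standard error 0.32, edgeR adjusted p = 0.0394) and Cd74, the invariant chain (1.997, standard error 0.26, edgeR adjusted p = 0.0133), were called as well. Ciita, the activator of these genes, was at 21 and 20.002 CPM in WT and at 91.6 and 29.4 CPM in the others. The immunoproteasome subunits Psmb8 (log2 fold change 0.78) and Psmb9 (0.79), the peptide transporter Tap1 (1.002) and the checkpoint ligand Cd274 (1.35) were higher without overlap and not called. The chemokines Cxcl9 and Cxcl10, which attract T cells, overlapped between the groups. Cxcl9 was at 290 and 103 CPM in WT and at 622 and 218 CPM under the Trim24-deficient label, and Cxcl10 at 322 and 232 CPM and at 509 and 174 CPM.

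Genes best known as targets of type I interferon had a median log2 fold change of 0.40 over 20 genes tested. edgeR called none, 8 were higher at an unadjusted p under 0.05, and 11 were higher without overlap and 1 lower (against 6.58%, 21.4% and 23.0% of all genes tested). Ifit1, which binds viral RNA, was at 87.0 and 111 CPM in WT and at 152 and 132 CPM under the Trim24-deficient label, and Isg15, a ubiquitin-like modifier, at 87.0 and 94.2 CPM and at 141 and 107 CPM. Irf7 was at 470 and 415 CPM in WT and at 813 and 655 CPM in the others (log2 fold change 0.73, standard error 0.22, edgeR adjusted p = 0.219). Mx1 (96.1 and 112 CPM, then 146 and 68.4) and Rsad2, or viperin (209 and 284 CPM, then 286 and 185), overlapped, with log2 fold changes of 0.05 and -0.07. Of the 20, 12 were lower in WT replicate 1 than in WT replicate 2, Ifit1, Isg15, Mx1 and Rsad2 among them, and 8 were higher, as Irf7 and all 10 GTPases were.

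Transcripts of the proteins that place GTPases on membranes or act after them were measured in the same fit. Of 21 genes of the ubiquitin-like conjugation and inflammasome machinery, edgeR called none, 3 were higher at an unadjusted p under 0.05, 6 were higher and 3 lower without overlap, and the median log2 fold change was 0.14. Over all genes tested those shares were 6.58%, 21.4% and 23.0%, so the counts of the list without overlap lay near the background. Atg5, required for IRGs to load onto vacuoles, was between 51.3 and 59.6 CPM in all libraries (log2 fold change 0.11, standard error 0.19), and Gabarapl2 between 50.5 and 60.1 CPM (0.03, standard error 0.19). Casp4, the receptor for cytosolic lipopolysaccharide, was at 25.2 and 29.4 CPM in WT and at 42.0 and 28.2 CPM under the Trim24-deficient label, with overlap. Gsdmd, which forms pores in pyroptosis, was at 80.4 and 85.4 CPM in WT and at 130 and 115 CPM in the others (log2 fold change 0.56, standard error 0.18, edgeR adjusted p = 0.253). Aim2, the DNA sensor, was at 21.4 and 31.5 CPM in WT and at 22.6 and 15.6 CPM in the others.

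Markers of other cells moved with some of these libraries. The summed level of 13 detected T and NK cell markers (of 15 listed) was 197 and 109 CPM in WT and 446 and 116 CPM under the Trim24-deficient label. Like Ifng it stood highest in replicate 1 of that label, but in replicate 2 it lay below WT replicate 1, whereas the summed GTPases there (2169 CPM) lay above it (1553 CPM). Of the 11 T and NK markers tested edgeR called none, 1 was higher at an unadjusted p under 0.05, and 0 parted the groups. Over all genes tested 0.372% were called, 6.58% were higher at that p, and 21.4% were higher and 23.0% lower without overlap. The T cell receptor constant genes Trbc1 and Trbc2 are listed in no library and give no level, while Cd3e was between 2.67 and 16.4 CPM and Nkg7 between 20.2 and 100 CPM. Their part in the level of the GTPases was not tested.

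Monocyte markers differed along the group labels. Their sum over 6 of 6 markers was 574 and 734 CPM in WT and 1805 and 1247 CPM under the Trim24-deficient label. All 6 were higher without overlap, against 21.4% of all genes tested. F10 was called (log2 fold change 1.53, edgeR adjusted p = 0.0152), against 0.372% of all genes tested. Ly6c2 was at 190 and 176 CPM in WT and at 616 and 295 CPM in the others. The sum includes Chil3 (Ym1), which the paper lists among the macrophage genes that Stat6 activates. Chil3 was at 49.1 and 87.5 CPM in WT and at 117 and 171 CPM in the others. Unlike the GTPases, the monocyte sum was higher in WT replicate 2 than in WT replicate 1. Over 8 of 10 neutrophil markers the sum was 177 and 206 CPM in WT and 272 and 410 CPM under the Trim24-deficient label. Of 4 tested, 3 were higher without overlap (21.4% of all genes tested) and at an unadjusted p under 0.05 (6.58%). The median log2 fold change of the 4 was 1.41. S100a8, a calcium-binding protein of neutrophils and monocytes, was at 17.4 and 15.6 CPM in WT and at 35.1 and 118 CPM in the others (log2 fold change 2.21, edgeR adjusted p = 0.107), S100a9 had a log2 fold change of 1.995 and Csf3r one of 0.83, and none was called. The other tested marker, Cxcr2, went the other way, with a log2 fold change of -0.30 and overlap of the groups. Ly6g was at 1.92 CPM or less, and Mpo and Elane are listed in no library. The 9 dendritic cell markers summed to between 63.8 and 105 CPM with overlap, and the 7 melanoma markers to between 611 and 813 CPM with overlap. Of 6 dendritic cell markers tested, 2 (Flt3 and Cd209a) were lower without overlap and 1 (Batf3) higher, against 23.0% and 21.4% of all genes. edgeR called none of the 6, and 1 (Flt3) was lower at an unadjusted p under 0.05, against 635 of all 11302 genes tested. By gene, 4 of the 7 melanoma markers (Mlana, Tyrp1, Dct and Mitf) were lower without overlap, against 23.0% of all genes tested. None of the 7 was called, and their median log2 fold change was -0.46. At an unadjusted p under 0.05, 1 (Tyrp1) was lower, against 635 of all 11302 genes tested. These neutrophil, dendritic cell and melanoma genes were named after their values were seen. The part of these cells in the level of the GTPases was not tested.

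**Figure D5:**
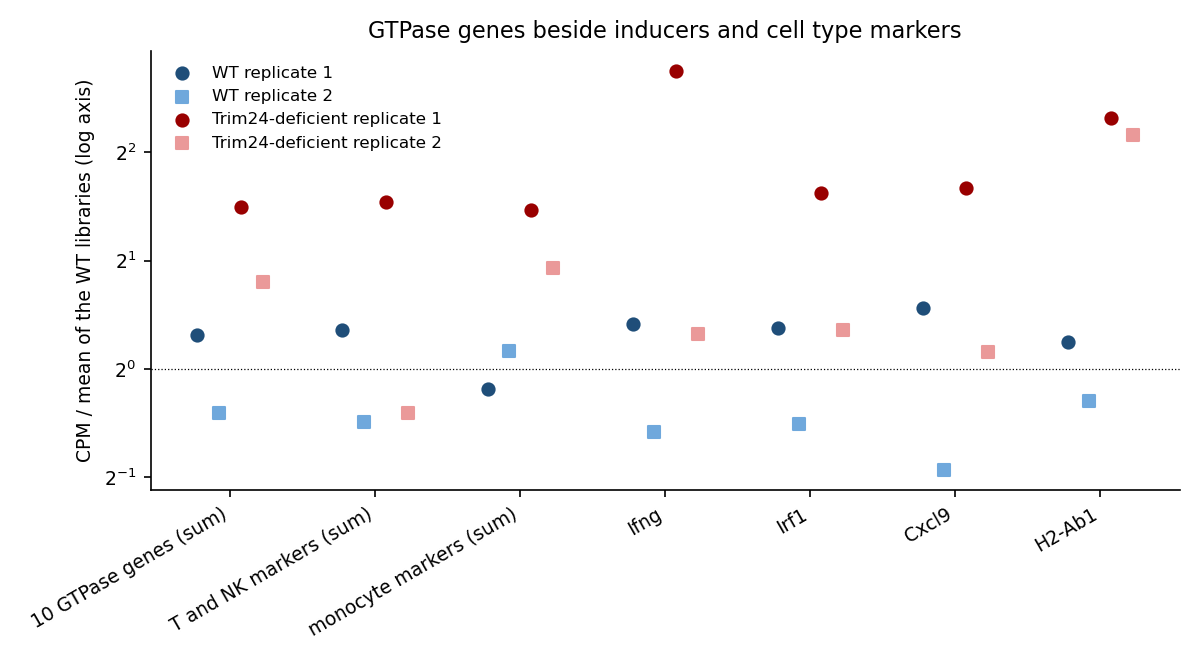
CPM relative to the mean of the WT libraries (log axis), 1 point per library, for the summed 10 GTPases, summed T and NK cell and monocyte markers, and single genes. The GTPases are at 2.82 and 1.74 times the WT mean under the Trim24-deficient label (replicates 1 and 2), where Ifng is at 6.73 and 1.25 times, T and NK markers at 2.91 and 0.756 times and monocyte markers at 2.76 and 1.91 times.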

How the data were processed

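RNA-seq libraries of sorted TAMs were grouped by their genotype labels, 2 WT and 2 labelled Trim24-deficient. Bowtie alignment to GRCm38/mm10 and RSEM were run by the authors, and the deposited expected counts carry no normalization. RSEM divides reads shared by copies, which affects near-identical genes. The deposited FPKM values are scaled to gene length and library total. A gene missing from a table was set to 0. The 10 genes and all lists were chosen with earlier results of these data known. Named genes are the 10, the other detected family genes, fixed members of the signalling, interferon and machinery lists, and any list gene called. The values of 1 signalling gene and of 1 called monocyte marker are not reported here.

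Expected counts were rounded. edgeR 4.0.16 (R 4.3.3) filtered low genes (filterByExpr, 11302 of 16739 genes kept, 16698 matched a symbol), scaled by TMM and fitted the genotype label by quasi-likelihood, with Benjamini-Hochberg adjustment over all genes tested. Standard errors are the log2 fold change divided by the square root of F. Alternatives were a replicate block, DESeq2 1.42.0, limma 3.58.1 on log2 FPKM with a pseudocount of 1 or 0.1, other scalings and filters, and each library left out. Removal of a trend on gene length was chosen after seeing the data. The fit was tested on simulated data with known changes. No protein sequences were used here, so only Tgtp1 and Tgtp2 were summed as copies, and shared words of 50 bases in GENCODE transcripts describe likeness. Precision from counting covers counting error only.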

Additional observations from a re-analysis of the deposited data

How the results depend on the processing

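All 10 log2 fold changes kept their sign under all 14 alternatives, 140 values in all, of which 34 passed the thresholds. Calls did not hold steady. Of all genes, edgeR called 42 in the main analysis, DESeq2 156, limma 23 on log2(FPKM + 1), 20 on log2(FPKM + 0.1) and 0 when all genes were kept (1636 at an unadjusted p under 0.05), and 25 to 652 were called with 1 library left out. Of the 10 GTPases, 0 were called in the main analysis, 8 with DESeq2, 1 without the low-count filter and 0 to 10 with 1 library left out. The median log2 fold change of the 10 was 1.24, and 0.83 to 1.75 with 1 library left out. The Tgtp1 and Tgtp2 sum was called with DESeq2 at a log2 fold change of 1.42 and had 1.07 to 1.77 with 1 library left out. Using library totals moved the median of all genes to -0.15 and that of the GTPases to 1.10. The causes were not tested.

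Both groups carry replicate numbers 1 and 2, and deviations of same-numbered libraries correlated at 0.165 across genes, which are not independent. Fitted with the replicate number as a block, 634 genes and 10 of 10 GTPases were called, and the sum at a log2 fold change of 1.41. The labels do not say that a number marks a litter or day. Depth limits the lowest genes, such as Gbp5 and Gbp11, most.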
